A study of Mus musculus with 4 samples.

Results

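Receptors for the fast transmitters of the brain were described through 52 genes, namely every subunit gene of the ionotropic and metabotropic glutamate receptors, the GABA-A and GABA-B receptors and the glycine receptors that the gene names of the table matched, out of 46072 genes in all. They fall into 8 classes of 2 to 19 genes. The 4 libraries are poly(A) RNA-seq of mouse brain vasculature, labelled as endothelial cells that were laser-captured from wild-type, untreated animals, and the series title describes perfusion-fixed tissue with immunolabelled targets. They form 1 group, here replicates 1 to 4, so that comparisons are between genes within the libraries. Separate animals are not stated, nor are strain, age or brain region, so that any p-value here reflects how these samples varied, possibly for technical reasons alone. The unit is the authors' FPKM, fragments scaled to transcript length and library size, so levels are per length. They are set side by side between genes here, but the values do not show how evenly reads covered long and short transcripts. The longest annotated transcripts differ widely, with 24060 nt for Grin2b and 4276 nt for Grin1, so differences between genes are approximate.

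Glutamate opens the AMPA, NMDA and kainate receptors, which are cation channels built from several subunits, and acts on the metabotropic (mGlu) receptors, which signal through G proteins. GABA opens the chloride channel of the GABA-A receptor, usually assembled from alpha, beta and gamma subunits, and acts on the GABA-B receptor, a G protein-coupled heterodimer. Glycine opens a related chloride channel, best known from spinal cord and brainstem. Neurons are the main site of these receptors in brain, and astrocytes are known for some of them.

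Summed FPKM per library was 448678 to 482882, and since the read depth is unknown no counting interval can be had. The endothelial markers were measured, but the summed markers of neurons, astrocytes and oligodendrocytes stood above theirs in every library. The 10 endothelial genes summed to 142 to 163 FPKM, and their means ranged from 0.368 FPKM for Erg to 68.2 FPKM for Ly6c1. Cldn5, the main claudin of brain endothelium, had 19.0 ± 0.698 FPKM and Cdh5, vascular endothelial cadherin, 0.878 ± 0.367 FPKM (SD, n = 4). The 3 microglia genes and the 3 pericyte genes summed to less, 81.4 to 108 and 75.3 to 95.9 FPKM, but over fewer genes. Per gene they were higher, with medians of 20.5 and 19.7 FPKM against 5.15 FPKM for the endothelial genes. The 6 general neuron genes summed to 1873 to 2386 FPKM, the 4 excitatory neuron genes to 494 to 581, the 6 inhibitory neuron genes to 416 to 471, the 6 astrocyte genes to 780 to 971 and the 4 oligodendrocyte genes to 4566 to 5765, all above 0 in all 4 libraries. Which cells the receptor RNA came from was not tested, and in such bulk samples fewer cells of a type and less RNA per cell cannot be told apart.

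Most receptor subunits were measured at low to moderate level. Of the 52 genes, 45 were above 0 in all 4 libraries, 4 were listed at 0 in some and 3 were listed at 0 in all, which can be a failed estimate as well as absence. Among the 49 that could be tested, 38 exceeded 1 FPKM (limma, adjusted p under 0.05 over all genes), against 47.7% of all 25206 genes tested, and 7 were under it, against 40.1% of all genes. For the other 4 no direction passed. Their median was 4.51 FPKM, against 1.45 FPKM over all genes tested. The mean lay under 1 FPKM in 8 genes, from 1 up to 5 FPKM in 18, from 5 up to 10 in 5, from 10 up to 50 in 14 and above that in 4. The highest group includes Glrb and Gabbr1, subunits of receptors for inhibitory transmitters.

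By class, GABA-A subunits held the largest summed level. The 19 GABA-A genes summed to 322, 325, 311 and 292 FPKM in replicates 1 to 4. The 5 glycine receptor genes summed to 135 ± 10.3 FPKM, the 2 GABA-B genes to 106 ± 9.30 and the 4 AMPA genes to 93.2 ± 7.08 (SD, n = 4). The 8 mGlu genes summed to 43.1 ± 5.56 FPKM, the 7 NMDA genes to 36.3 ± 7.96, the 5 kainate genes to 16.3 ± 1.78 and the 2 delta genes to 2.39 ± 0.586. In all 4 libraries the GABA-A sum was the highest and the delta sum the lowest, and the AMPA sum lay under the GABA-B sum. The mGlu and NMDA sums ranged over 36.6 to 48.0 and 27.3 to 44.7 FPKM, and the mGlu sum was the higher in each of the 4 libraries. A sum over a class also depends on how many genes the class has. Within a library, the GABA-A and glycine receptor genes together summed to 3.10 ± 0.390 times the AMPA, NMDA and kainate genes, with values of 2.87, 3.67, 2.83 and 3.03.

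**Figure D1:**
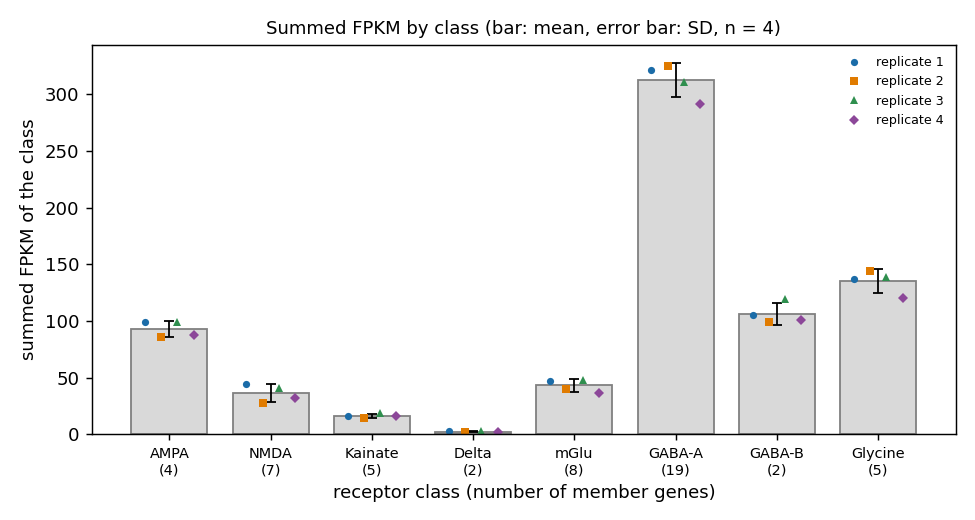
Summed FPKM of the member genes of each receptor class (vertical axis), with the number of genes in brackets. Bars are means, error bars SD over 4 libraries and points the libraries. The GABA-A sums, 292 to 325 FPKM, stand above those of every other class.

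The AMPA receptor carries most fast excitatory transmission, and all 4 of its subunits lay above 1 FPKM, as did 47.7% of all genes. Gria2, the subunit that makes the channel nearly impermeable to calcium after RNA editing, had 35.2, 33.0, 34.6 and 36.5 FPKM in replicates 1 to 4 and was the highest of the class in all of them. Gria4 had 27.1, 23.7, 21.7 and 18.2 FPKM, and Gria1 had 21.2, 15.7, 25.7 and 18.3 FPKM. Gria3 was the lowest on average, with 15.8, 13.8, 17.3 and 14.9 FPKM. The ranges of Gria4 and Gria1 overlapped, and so did those of Gria1 and Gria3, although Gria1 was above Gria3 in each of the 4 libraries, while no library of the other subunits reached the lowest Gria2 value. Gria2 held 37.5% ± 3.05 of the AMPA sum, and its ratio to the summed Gria1, Gria3 and Gria4 was 0.603 ± 0.0799 (SD, n = 4).

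Each other AMPA subunit was compared with Gria2 within the libraries. All 3 were lower than Gria2 (limma, adjusted p under 0.05), as were 90.1% of all genes, and 0 were higher, against 7.63% of all genes, so the count itself is close to the background. On the log2(FPKM + 1) scale Gria4 differed from Gria2 by -0.61 ± 0.27, Gria1 by -0.78 ± 0.28 and Gria3 by -1.13 ± 0.13 (SD of the differences, n = 4). Each was lower in 4 of 4 libraries, with adjusted p values of 0.0204, 0.0120 and 0.000526 when limma used each gene's own spread without moderation.

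The AMPA subunits are set beside each other at the codon that RNA editing changes in Gria2, because FPKM counts edited and unedited transcripts alike and says nothing of the editing. The coding-strand sequences are 45 bases each from GENCODE M21 transcripts (GRCm38), 5′ to 3′, with the codon of the Q/R site in the pore loop in capitals. That codon lies at chr11:57243094-57243096 (plus strand, exon 11) in Gria1, chr3:80706911-80706913 (minus strand, exon 11) in Gria2, chrX:41610265-41610267 (plus strand, exon 11) in Gria3 and chr9:4464137-4464139 (minus strand, exon 12) in Gria4.
Gria1: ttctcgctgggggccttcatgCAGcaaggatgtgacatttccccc
Gria2: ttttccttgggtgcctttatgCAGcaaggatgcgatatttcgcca
Gria3: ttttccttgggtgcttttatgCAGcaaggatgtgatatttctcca
Gria4: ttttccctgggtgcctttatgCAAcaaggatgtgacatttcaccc
The genome codon is CAG in Gria1, Gria2 and Gria3 and CAA in Gria4, both codons for glutamine. Editing of the Gria2 codon, which makes it read as arginine, cannot be seen in the deposited values.

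The NMDA receptor needs the GluN1 subunit, encoded by Grin1, together with GluN2 or GluN3 subunits, and Grin1 was the highest gene of the class. Grin1 had 28.3, 16.7, 26.2 and 20.6 FPKM in replicates 1 to 4, or 63.1% ± 1.46 of the NMDA sum (SD, n = 4). Replicates 1 and 3 were the higher ones and replicate 2 the lowest. Its ratio to the summed GluN2 genes was 2.43, 2.08, 2.38 and 2.29, a mean of 2.29 ± 0.156, and so varied less than Grin1 itself. All 6 other NMDA genes were lower than Grin1 in 4 of 4 libraries (limma, adjusted p under 0.05), as were 83.9% of all genes, while 9.64% of all genes were higher. The differences ranged from -2.48 for Grin3a to -4.43 for Grin3b on the log2(FPKM + 1) scale.

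The GluN2 subunits set the opening time and magnesium block of the receptor, and 3 of the 4 genes were measured at near levels. Grin2b, prominent early in life and in forebrain, had 2.97, 2.45, 3.46 and 3.88 FPKM. Grin2c, known from cerebellar granule cells and also from astrocytes, had 4.86, 2.61, 3.08 and 1.78 FPKM, and Grin2a, which becomes prominent with age, had 2.53, 1.51, 3.01 and 2.16 FPKM. Grin2d, known from interneurons and brainstem, was the lowest of the GluN2 genes at 1.35 ± 0.125 FPKM and passed in neither direction against 1 FPKM (limma, adjusted p = 0.0880). Without limma's variance trend it lay above 1 FPKM (adjusted p = 0.00774).

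Grin2a was below Grin2b in 4 of 4 libraries, with a ratio of 0.724 ± 0.160 (SD, n = 4), but the difference of -0.35 on the log2(FPKM + 1) scale did not pass (limma with each gene's own spread, adjusted p = 0.0633). Moderated without the variance trend it passed. Grin2c differed from Grin2b by -0.08 with an SD of 0.57 and was lower in 2 of 4 libraries (limma, adjusted p = 0.811). Grin2d alone was called lower than Grin2b (limma, adjusted p under 0.05), at -0.83 ± 0.27 (SD), where 55.4% of all genes were, and 0 of the 3 was higher, against 34.7% of all genes.

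Among the GluN3 genes, whose subunits bind glycine and lower calcium entry, Grin3a had 4.70, 2.47, 3.61 and 2.45 FPKM. That was near the levels of Grin2b and Grin2c, and above Grin2a and Grin2d in every library. Grin3b, known from motor neurons, had 0, 0.165, 0.195 and 0.0242 FPKM and lay below 1 FPKM (limma, adjusted p = 3.82e-05). Exons of Grin3b overlap those of Tmem259 on the opposite strand, which measured 7.24 FPKM, and since the strand setting is not given in the sources used here, its small values are uncertain.

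Kainate receptors tune release and excitability, and the high-affinity subunits Grik4 and Grik5, which need a low-affinity partner to form a channel, held 55.0% ± 7.98 of the class sum (SD, n = 4). Grik5 had 6.86, 4.92, 7.60 and 8.20 FPKM in replicates 1 to 4 and was the highest of the class in every library. Grik2, the most widespread low-affinity subunit, had 3.73, 3.19, 4.50 and 3.65 FPKM. Grik1, known from interneurons, had 2.75, 4.57, 2.37 and 1.80 FPKM, and was above Grik2 in replicate 2 alone. Grik3 was the lowest at 0.679, 0.381, 0.549 and 0.922 FPKM.

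Relative to Grik2, Grik5 was higher in 4 of 4 libraries, by 0.71 ± 0.20 (SD) on the log2(FPKM + 1) scale, where 33.1% of all genes were called higher (limma, adjusted p = 0.00806 with each gene's own spread). It was the only one of the 41 class members tested against the chosen subunit of their class that was called higher. Without replicate 2, the moderated fit called Grm3 higher than Grm5 as well. Grik1, Grik3 and Grik4 were called lower than Grik2, as were 58.6% of all genes. The call for Grik1, at -0.34 ± 0.53 (SD), was lost with its own spread (limma, adjusted p = 0.306) and without replicate 1, 3 or 4. Grik4 averaged 2.18 ± 1.07 FPKM, with 3.71 FPKM in replicate 3 and 1.35 to 2.10 in the others. Its call above 1 FPKM (limma, adjusted p = 0.0337) was lost without replicate 1, 3 or 4. Grik3 lay below 1 FPKM (limma, adjusted p = 0.0359), a call lost without replicate 1, 2 or 3 and at pseudocounts of 0.1 and 0.01.

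The delta subunits, which bind cerebellin at synapses more than they act as glutamate channels, were the lowest class. Grid1 had 0.605, 0.634, 0.781 and 0.846 FPKM in replicates 1 to 4. It lay below 1 FPKM (limma, adjusted p under 0.05), a call lost with any 1 library left out.

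The mGlu receptors act through Gq in group I and through Gi in groups II and III, and a group II gene led the class. Grm3, which is known from astrocytes as well as neurons, had 14.4, 16.5, 14.7 and 9.75 FPKM in replicates 1 to 4 and was the highest mGlu gene in all of them, with 32.2% ± 6.19 of the class sum. Grm2, its partner in group II and a presynaptic receptor, had 2.74, 5.18, 2.81 and 3.64 FPKM. Grm7, the widespread presynaptic receptor of group III, had 8.99, 8.41, 11.1 and 5.25 FPKM.

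Grm5, the main group I receptor of forebrain, had 11.3, 1.75, 9.60 and 8.66 FPKM. Replicate 2 was the lowest, and Grm5 had the largest coefficient of variation, 53.6%, of the 41 receptor genes that averaged 1 FPKM or more.

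Of the 7 mGlu genes other than Grm5, Grm6 was not tested against Grm5 and 5 passed in neither direction with all libraries. Only Grm4 was called lower than Grm5, where 56.3% of all genes were called lower and 15.2% higher. That call was lost without replicate 1, 3 or 4 and with its own spread (limma, adjusted p = 0.112). Fits with each gene's own spread were not run with a library left out. In the moderated fit without replicate 2, the genes called lower than Grm5 included Grm2 and Grm8, and Grm3 was called higher. The order of the mGlu genes under Grm3 therefore depends on replicate 2. Grm8 and Grm4, presynaptic group III receptors, averaged 2.67 ± 0.492 and 2.19 ± 0.307 FPKM (SD, n = 4). Grm6, the receptor of retinal ON bipolar cells, was listed at 0 in all 4 libraries. The retinal marker gene Crx averaged 0.347 FPKM.

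**Figure D2:**
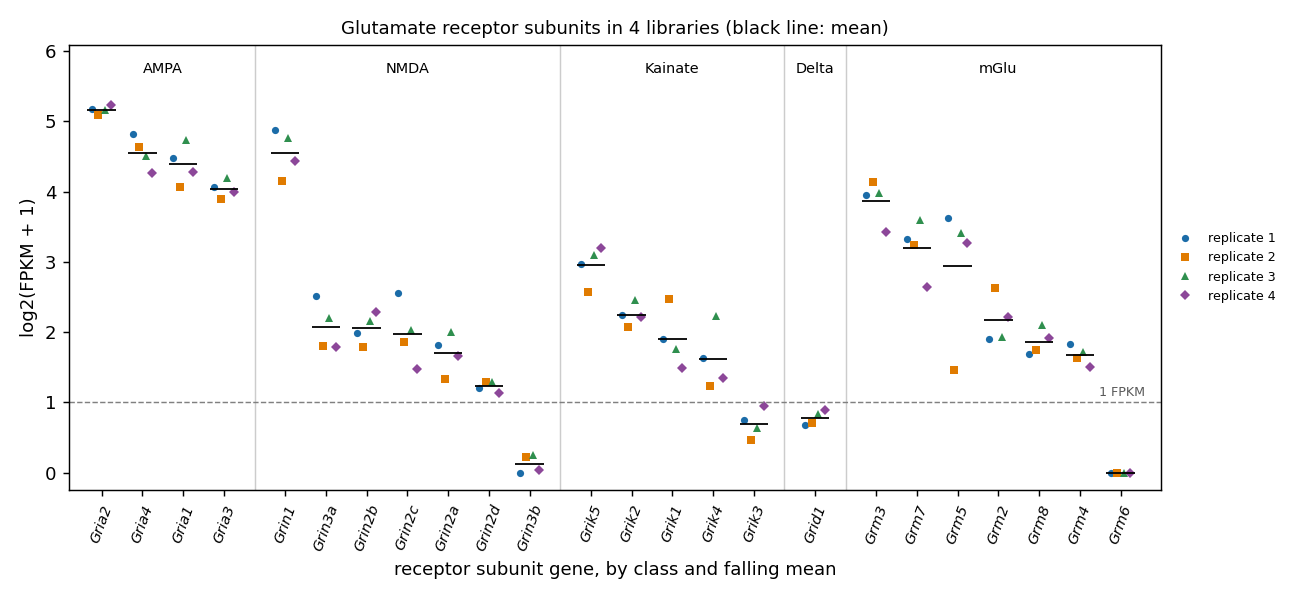
Level of glutamate receptor subunit genes on the log2(FPKM + 1) scale (vertical axis), by class and falling mean. Points are the 4 libraries, black lines their means, and the dashed line marks 1 FPKM. Gria2 and Grin1 lead their classes, and replicate 2 of Grm5, at 1.75 FPKM, is the lowest library of that gene.

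Of the GABA-A genes, 13 of the 17 above 0 exceeded 1 FPKM, against 47.7% of all genes, 3 were under it, against 40.1% of all genes, and 1 passed neither way, while Gabra6 and Gabrr3 were listed at 0 in all libraries. The alpha genes held 58.2% ± 0.958 of the class sum, the gamma genes 26.2% ± 1.24 and the beta genes 10.7% ± 2.56 (SD, n = 4). Summed alpha was 2.22 ± 0.0747 times summed gamma, with 2.22, 2.12, 2.30 and 2.25 in replicates 1 to 4. It was 5.69 ± 1.43 times summed beta, with 4.19, 7.26, 4.81 and 6.49, so replicates 2 and 4 stood above replicates 1 and 3.

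Among the alpha genes, Gabra4, known from extrasynaptic receptors of thalamus and striatum, had 31.0, 31.7, 25.4 and 24.9 FPKM in replicates 1 to 4. Gabra5, prominent in hippocampus, averaged 21.3 ± 2.19 FPKM, Gabra3 19.0 ± 2.60 and Gabra2, found on the axon initial segment of cortical neurons, 8.11 ± 0.477 (SD, n = 4). The values of Gabra5 and Gabra3 overlapped, while those of Gabra4 lay above and those of Gabra2 below all of them.

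Gabra6, the alpha subunit of cerebellar granule cells, was listed at 0 in all 4 libraries. The granule cell markers Fat2, also at 0 in all libraries, and Cbln3, at 0.0964 ± 0.130 FPKM, were at or near 0 as well, while Neurod1 and Zic1, which other neurons also express, measured 5.42 ± 0.827 and 1.80 ± 0.773 FPKM (SD, n = 4). Other subunits known from granule cells were measured, among them Gabrd and Grin2c.

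The alpha subunits are shown at the codon that decides classical benzodiazepine binding, because the alpha genes differ there. Each sequence is 45 bases of the coding strand from GENCODE M21 transcripts (GRCm38), 5′ to 3′, with that codon in capitals. These genes lie on the minus strand. The codon lies at chr5:71014505-71014507 (exon 5) in Gabra2, chrX:72501168-72501170 (exon 5) in Gabra3, chr5:71641152-71641154 (exon 4) in Gabra4, chr7:57488891-57488893 (exon 5) in Gabra5 and chr11:42317647-42317649 (exon 4) in Gabra6.
Gabra2: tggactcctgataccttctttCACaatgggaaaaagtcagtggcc
Gabra3: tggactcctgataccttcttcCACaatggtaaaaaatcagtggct
Gabra5: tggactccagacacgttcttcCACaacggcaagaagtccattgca
Gabra4: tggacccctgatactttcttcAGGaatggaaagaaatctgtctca
Gabra6: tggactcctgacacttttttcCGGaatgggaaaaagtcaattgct
The codon is CAC, for histidine, in Gabra2, Gabra3 and Gabra5, and AGG or CGG, for arginine, in Gabra4 and Gabra6. Gabra4 and Gabra6 together held 15.5% ± 1.32 of alpha FPKM (SD, n = 4), with 16.8%, 16.4%, 14.2% and 14.6% in replicates 1 to 4, and all of it came from Gabra4.

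The beta subunits are needed for assembly and for the GABA site. Gabrb2 had 17.5, 9.64, 12.7 and 7.87 FPKM in replicates 1 to 4, with replicates 2 and 4 the lowest. Gabrb1 averaged 4.64 ± 0.493 FPKM (SD, n = 4) and did not share that order. Its exons overlap those of Gabra4 on the opposite strand at the gene ends only. On chromosome 5 Gabrb1 starts at 71658113 and Gabra4 ends at 71658308. Without a known strand setting, reads from that stretch cannot be assigned to 1 of these genes.

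Of the gamma genes, whose subunits anchor synaptic receptors, Gabrg1, known from astrocytes and from amygdala and hypothalamus, averaged 15.5 ± 0.588 FPKM and Gabrg3 averaged 2.71 ± 0.201 FPKM (SD, n = 4). Gabrg1 had the smallest coefficient of variation, 3.79%, of the 41 receptor genes at 1 FPKM or more. Gabrd, the delta subunit of extrasynaptic receptors that takes the place of gamma, had 8.80, 10.4, 12.3 and 15.8 FPKM.

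Gabrq, the theta subunit of monoaminergic and hypothalamic neurons, averaged 0.706 ± 0.337 FPKM and passed in neither direction (limma, adjusted p = 0.132). Gabre, the epsilon subunit, averaged 0.107 ± 0.0841 FPKM. Gabrp, the pi subunit known from tissues outside the brain, had 0.0371 FPKM in replicate 1 and 0 in the other libraries. Of the Gabrr genes, whose subunits form receptors best known from retina, Gabrr2 had 1.29, 2.18, 2.26 and 1.83 FPKM and lay above 1 FPKM (limma, adjusted p = 0.0161), a call lost without replicate 2, 3 or 4. Gabrr1 had 0.0376, 0.496, 0 and 0.660 FPKM.

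**Figure D3:**
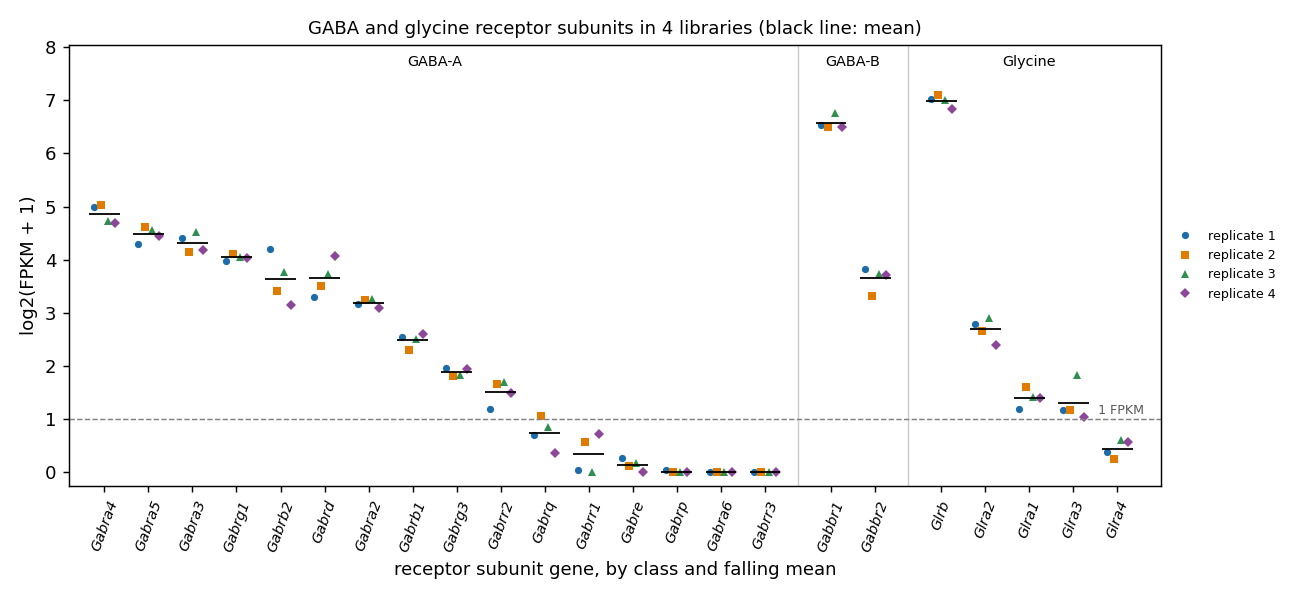
Level of GABA-A, GABA-B and glycine receptor subunit genes on the log2(FPKM + 1) scale (vertical axis), by class and falling mean. Points are the 4 libraries, black lines their means, and the dashed line marks 1 FPKM. Gabbr1 and Glrb stand far above the other genes of their classes, and Gabra6 and Gabrr3 lie at 0 in every library.

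Most GABA-A genes lie in clusters, while Gabrd, Gabrp and Gabrr3 lie alone. On chromosome 5 (GRCm38, 70751047 to 72149037) Gabrg1, Gabra2, Gabra4 and Gabrb1 ranged over 4.64 to 28.3 FPKM. On the X chromosome (72255999 to 72842602) Gabra3, at 19.0 FPKM, lies between Gabre and Gabrq, which both averaged under 1 FPKM. In both clusters the gene with the highest mean was an alpha gene.

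The GABA-B receptor is an obligate pair in which GABBR1 binds GABA and GABBR2 couples to the G protein, and the genes of the pair stood far apart. Gabbr2 had 13.3, 8.92, 12.4 and 12.2 FPKM in replicates 1 to 4, against 91.9, 89.8, 107 and 89.1 FPKM for Gabbr1. Gabbr2 was at 0.124 ± 0.0206 of the Gabbr1 level, and differed from it by -2.92 ± 0.23 on the log2(FPKM + 1) scale, lower in 4 of 4 libraries (SD, n = 4; limma, adjusted p = 0.000183 with each gene's own spread), as 96.2% of all genes were called lower than Gabbr1 and 2.56% higher. The longest annotated transcripts of Gabbr2 and Gabbr1 are 5750 and 5248 nt.

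Glycine receptors combine alpha subunits, which can form channels alone, with the beta subunit, which binds the scaffold gephyrin, and the beta gene Glrb had the highest mean of all 52 receptor genes. Glra2, the alpha subunit of immature neurons, had 5.91, 5.36, 6.46 and 4.28 FPKM, Glra1, that of adult spinal cord and brainstem, had 1.29, 2.06, 1.66 and 1.64 FPKM, and Glra3 had 1.26, 1.27, 2.55 and 1.06 FPKM. Glra4 was the lowest at 0.301, 0.186, 0.517 and 0.481 FPKM. Glrb had 129, 135, 128 and 113 FPKM in replicates 1 to 4. All 4 alpha genes were lower than Glrb in 4 of 4 libraries (limma, adjusted p under 0.05), as were 97.4% of all genes, with 1.88% higher. On the log2(FPKM + 1) scale the differences ranged from -4.30 for Glra2 to -6.54 for Glra4.

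Glrb was 14.1 ± 1.83 times the summed alpha genes (SD, n = 4), with 14.7, 15.2, 11.4 and 15.1 in replicates 1 to 4. Glra2 held 60.8% ± 4.68 of the alpha sum and Glra1 18.7% ± 4.56. Slc6a5, the transporter that marks glycinergic neurons, averaged 0.0566 FPKM and was at 0 in 1 library. Against 1 FPKM, Glra3 passed in neither direction (limma, adjusted p = 0.144), and Glra1 lay above (limma, adjusted p = 0.0258), a call lost without replicate 2, 3 or 4.

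Auxiliary subunits, scaffolds and trafficking partners of these receptors were mostly measured as well, many of which also serve other synapses. Of 42 such genes, 36 lay above 1 FPKM, against 47.7% of all genes, 3 lay below, against 40.1% of all genes, and 3 passed in neither direction (limma, adjusted p under 0.05). The highest were Gabarap, an autophagy and GABA-A trafficking protein, at 169 ± 8.71 FPKM, Nsf, the vesicle fusion ATPase, at 151 FPKM with 145 to 162 over the libraries, and Cnih2, a cornichon of AMPA receptors, at 115 ± 3.24 FPKM (SD, n = 4). The 3 genes below 1 FPKM all belong to AMPA receptors, the class with the most partner genes in the list. Of the other AMPA partners, 13 lay above 1 FPKM and 1 passed in neither direction. Cacng8, the transmembrane regulatory protein known from hippocampus, averaged 0.291 ± 0.197 FPKM, Shisa6 0.366 ± 0.149 and Cacng7 0.576 ± 0.271 (SD, n = 4). The relatives of Cacng8 and Cacng7 in the list, Cacng3, Cacng2, Cacng4 and Cacng5, measured 18.2 ± 2.03, 5.95 ± 0.624, 2.53 ± 0.759 and 2.49 ± 1.08 FPKM. The rule for named genes does not include these relatives, which were chosen after their values were seen.

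Across the 41 receptor genes that averaged 1 FPKM or more, the median coefficient of variation was 18.5%, against 16.9% over the 13654 genes of that level. The steadiest were Gabrg1 and then Gria2, at 4.16%, and the least steady were Grm5, Grik4 at 49.0% and Glra3 at 44.5%. The receptor genes were not spread evenly over the libraries. Replicate 3 was the lowest library for 0 of the 41, against 23.6% of all genes of that level. Replicates 2 and 4 were the lowest for 16 and 18 of the 41, or 39.0% and 43.9%, against 27.5% and 23.8% of all genes. These are descriptions with no test. Across the 49 receptor genes above 0, which are not independent, the Spearman correlation of mean FPKM with the longest annotated transcript was -0.0138, and the longest annotated transcript of the 52 genes had a median of 4741 nt, against 2492 nt over all genes tested.

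Over the 8 classes, 35 of 41 tested members were called lower than the chosen subunit of their class, 1 was higher and 5 in neither. For the chosen subunits named above, 56.3% to 97.4% of all genes were called lower, so the count is near the background and says little about the receptor genes. With each gene's own spread, an alternative chosen after seeing the data, 32 were lower and 1 higher, and the calls lost include those of Grik1 and Grm4.

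**Figure D4:**
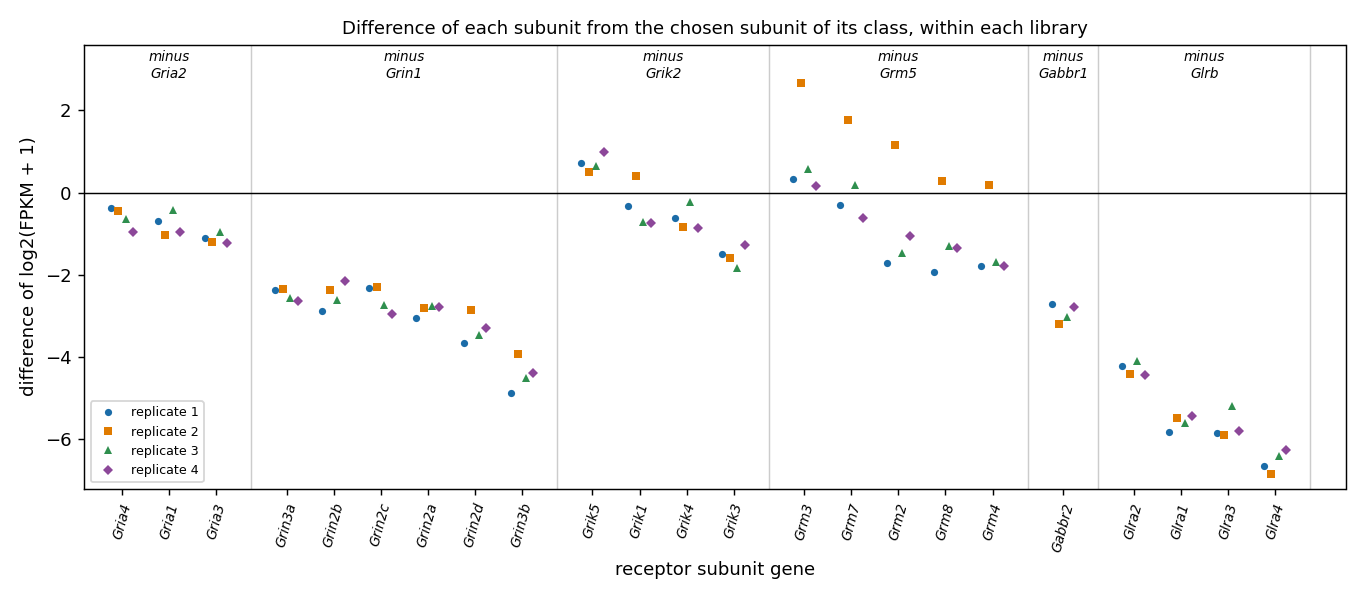
Difference of log2(FPKM + 1) between receptor subunit genes and the chosen subunit of its class, named above each panel, within each of the 4 libraries (points). Grik5 lies above Grik2 in all libraries, and in the Grm5 panel replicate 2, where Grm5 was at 1.75 FPKM, gives the highest differences.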

How the data were processed

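Poly(A) RNA was sequenced in 4 libraries of 1 group. The authors deposited 1 table of FPKM for 46072 genes. Per the submitters' processing notes, StringTie 2.2.1, HISAT2 2.2.1, SAMtools and bcl2fastq 2.20 are named, with build GRCm38. For their roles, the annotation release, the strand setting and any filter, nothing was given in the sources used here. An FPKM value depends on the transcript length used and on the other genes of a library, and the depth is unknown.

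Gene positions and sequences came from GENCODE M21 (GRCm38), which held all 52 receptor genes. Values were analysed as log2(FPKM + 1), which understates the fold of low genes. limma 3.58.1 in R 4.3.3 tested each of 25206 genes above 0 in any library against 1 FPKM, and then against 1 chosen subunit of each class within the libraries, 2-sided, with a mean-variance trend and Benjamini-Hochberg adjustment over all genes (threshold 0.05). In the second kind of fit every gene shares the chosen subunit's 4 values, so limma's moderated p-values are too small. For those comparisons the printed p-values therefore come from each gene's own spread, a choice made after seeing the data, and calls without a p are the moderated ones. Alternatives were the pseudocount, a filter on low values, 2 scalings, the variance model and each library left out.

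Named with values in every library are the chosen subunit, the 3 highest and the lowest genes of a class, and of the partner genes the 3 highest and 3 lowest are named. Values in every library of further genes were added after they were seen. Some genes enter the sums and counts but are not reported here. Chosen subunits, classes and lists rest on textbook roles, and the genes and lists were chosen with earlier results of these data known. Simulated data served to test the limma step against 1 FPKM, without the variance trend that the reported fits use. Of 50 genes raised by 1 log2 unit 68% were recovered, and 11 of 175 calls in all were false. The fits against a chosen subunit were not simulated.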

Additional observations from a re-analysis of the deposited data

Results flagged for a closer look

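A library far from the other 3 was found in 4 of 78 sets of values examined, the receptor genes, class sums, ratios and named partner genes, where chance flags about 1 in 20. Gabbr1 stood high in replicate 3, at 107 FPKM against 89.1 to 91.9 FPKM in the others. Glra3 stood high in the same library, at 2.55 FPKM against 1.06 to 1.27 FPKM. The ratio of Glrb to the summed alpha genes of the glycine receptor stood low there, at 11.4 against 14.7 to 15.2, and it contains Glra3. Gabrp had 0.0371 FPKM in replicate 1 and 0 in the other 3 libraries.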

How the results depend on the processing

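The count of receptor genes above 1 FPKM was 38 and ranged from 35 to 41 over all alternatives, and that of partner genes was 36 and ranged from 33 to 39. The count below 1 FPKM was 7, and it was 4 with only genes of at least 0.1 FPKM tested, 3 with FPKM rescaled to a sum of 1000000 in each library, and 4 to 6 with 1 library left out. Of the 49 genes tested against 1 FPKM, 39 had the same call in each alternative that tested them, among them Grin3b, which the filter at 0.1 FPKM left out, and Gabrp, which that filter and the fit without replicate 1 left out. With that rescaling the log2 difference from 1 FPKM turned round for Grik3 (0.21), Grid1 (0.34) and Gabrq (0.29), none of which passed, and the class sums became 200.5 for AMPA, 78.1 for NMDA, 35.1 for kainate, 5.16 for delta, 92.8 for mGlu, 672 for GABA-A, 228 for GABA-B and 291 for glycine. The rescaling multiplies every value of a library by 1 factor, so it leaves shares and ratios as they were. The count called higher than the chosen subunit was 1 or 2 with 1 library left out, and the count called lower ranged from 32 to 38. With 1 library left out, the log2 difference of Grm7 from Grm5 ranged from -0.24 (without replicate 2) to 0.56, and that of Grin2c from Grin2b from -0.29 to 0.17 (without replicate 4), and neither passed where the sign turned. No paired analysis was possible because the series has 1 group. Depth is unknown, so values near 0 cannot be told from absence.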
